A study of Mus musculus with 9 samples.

Results

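Fcgr1, Fcgr2b, Fcgr3 and Fcgr4, the mouse genes for the receptors that bind the Fc part of IgG antibodies, were followed together with Fcer1g, the gene of their shared signalling chain, in macrophages of the mouse peritoneal cavity after interferon. The members were taken by name, though with earlier results of these data known, and make up 5 of the 19752 genes with a value. All mice were male C57BL/6 of 6 weeks of age, and macrophages were collected from them by peritoneal lavage and purified by 2 rounds of cell sorting. The groups were mice killed 2 h after a subcutaneous injection of 10000 U of IFNa (recombinant interferon alpha, which is of type I, n = 4), mice killed 2 h after 8000 U of IFNg (recombinant interferon gamma, which is of type II, n = 2), and untreated mice (n = 3). There was no group injected with vehicle alone, so interferon and injection cannot be told apart in a comparison with untreated. The labels of the treated samples give the sort as F4/80+ ICAM2+ and those of the untreated samples as F4/80+ only, while the series description gives F4/80 and ICAM for all. The titles of the untreated samples alone carry the letters SPF. Any difference in sort or handling behind these labels cannot be told apart from treatment in a comparison with untreated. The labels do not say whether each array held 1 mouse or a pool, so p-values measure the spread between these samples.

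Fc gamma receptors join antibodies to the cells that act on them. In mice, Fcgr1, Fcgr3 and Fcgr4 encode activating receptors, which reach the surface and signal through the immunoreceptor tyrosine-based activation motif (ITAM) of the common gamma chain encoded by Fcer1g. Fcgr2b encodes the inhibitory receptor, whose inhibitory motif (ITIM) recruits phosphatases, and the balance of activating and inhibitory receptors is known to set how strongly a macrophage answers antibody-coated targets. The activating receptor of Fcgr1 binds monomeric IgG with high affinity, that of Fcgr4 binds mainly IgG2 subclasses, and that of Fcgr3 binds IgG in immune complexes with low affinity.

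Fcgr2b (chr1:170960558-170976071), Fcgr4 (chr1:171018926-171029761), Fcgr3 (chr1:171051169-171065915) and Fcer1g (chr1:171229572-171234349) lie in this order on chromosome 1, and Fcgr1 (chr3:96282909-96293969) lies on chromosome 3 (RefSeq, GRCm38.p6). The promoter windows of the 2 genes that rose after both interferons, Fcgr1 and Fcgr4, and of the inhibitory gene of the chromosome 1 cluster are printed for comparison, from 250 bases before to 50 after the annotated start and in the direction of transcription. Capitals mark 3 motifs that were searched on both strands. They were the gamma-activated site (GAS), spelled TTCNNNGAA, the interferon-stimulated response element (ISRE), spelled GAAA, any 2 bases and GAAA again, and the core bound by the myeloid factor PU.1, spelled GAGGAA, which reads TTCCTC on the other strand. No 2 matches overlapped.
Fcgr1, chr3:96293920-96294219, minus strand: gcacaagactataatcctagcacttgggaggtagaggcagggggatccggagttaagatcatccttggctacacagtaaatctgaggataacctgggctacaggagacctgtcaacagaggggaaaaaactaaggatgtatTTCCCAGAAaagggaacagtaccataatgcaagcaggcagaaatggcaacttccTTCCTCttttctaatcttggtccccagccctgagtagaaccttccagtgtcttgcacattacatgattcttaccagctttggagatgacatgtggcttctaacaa
Fcgr4, chr1:171018676-171018975, plus strand: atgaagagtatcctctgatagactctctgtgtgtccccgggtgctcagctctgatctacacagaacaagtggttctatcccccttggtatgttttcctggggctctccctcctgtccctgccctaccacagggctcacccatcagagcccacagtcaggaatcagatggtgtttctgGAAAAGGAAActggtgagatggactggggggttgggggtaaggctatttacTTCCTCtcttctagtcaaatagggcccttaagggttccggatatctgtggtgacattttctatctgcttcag
Fcgr2b, chr1:170976022-170976321, minus strand: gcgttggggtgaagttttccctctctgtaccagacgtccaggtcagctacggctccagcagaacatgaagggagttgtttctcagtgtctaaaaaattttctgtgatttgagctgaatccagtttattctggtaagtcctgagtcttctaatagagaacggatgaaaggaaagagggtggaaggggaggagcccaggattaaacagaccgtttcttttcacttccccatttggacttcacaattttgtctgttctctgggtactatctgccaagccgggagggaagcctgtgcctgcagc

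The Fcgr1 window held 1 GAS match, TTCCCAGAA, which began 109 bases before the start, and PU.1 letters that began 55 bases before it. The Fcgr4 window held 1 ISRE match, GAAAAGGAAA, which began 73 bases before the start, and PU.1 letters that began 22 bases before it. The windows read for Fcgr3, chr1:171059354-171059653 and chr1:171059345-171059644 on the minus strand, held PU.1 letters alone. These windows lay inside the annotated span of Fcgr3, which ends at 171065915, so sequence around that outer end was not searched. The windows of Fcgr2b and Fcer1g held none of the 3 motifs. Over all 32851 windows of 27025 genes, GAS letters were found in 8.30%, ISRE letters in 3.44% and PU.1 letters in 28.3%. A match describes letters in the window and shows no binding, and the absence of a match says nothing of other sequence.

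At 2 h after either interferon, Fcgr1 and Fcgr4 were several-fold higher than in untreated mice, while Fcgr3, Fcgr2b and Fcer1g did not pass the test. Of the 5 genes, 2 were called higher and 0 lower after IFNa, where 2.65% of all 19752 genes were called in either direction, 1.79% higher and 0.856% lower. The same 2 of 5 were called higher and 0 lower after IFNg, where 1.35% of all genes were called, 1.24% higher and 0.111% lower. A call was an adjusted p under 0.05 from limma, with Benjamini-Hochberg adjustment over all genes. No further member had an unadjusted p under 0.05 in either comparison, a level that 11.9% of all genes reached after IFNa and 8.23% after IFNg. Both comparisons use the same 3 untreated arrays. The median log2 change over all genes was -0.02 after IFNa and -0.06 after IFNg.

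**Figure D1:**
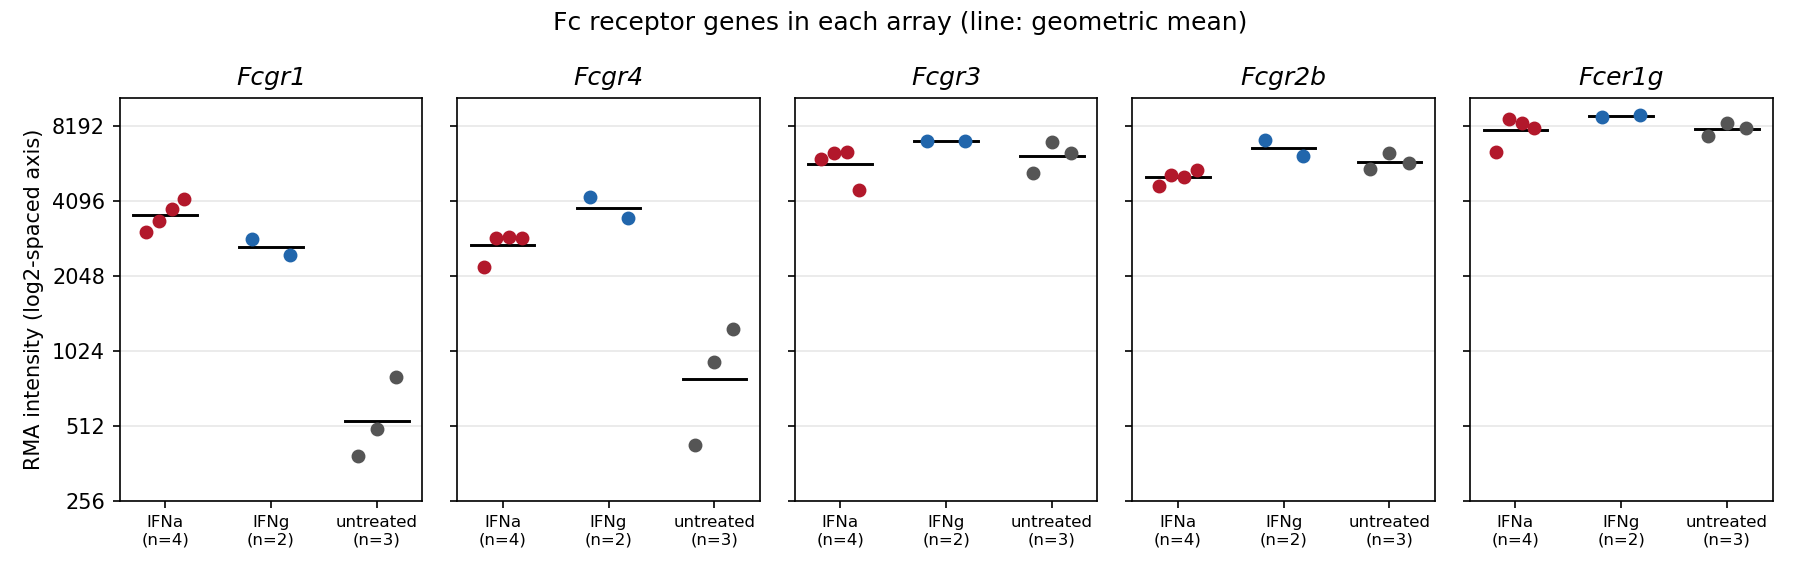
Deposited array intensity (log axis) of the 5 genes in the 4 IFNa, 2 IFNg and 3 untreated arrays, 1 point per array, with lines at the group means of log2 intensity. Fcgr1 and Fcgr4 lay above every untreated array in all 6 treated arrays, and the points of Fcgr3, Fcgr2b and Fcer1g lay close together across groups.

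Fcgr1, the high-affinity activating receptor, gave array intensities of 3088, 3408, 3817 and 4192 in the 4 IFNa arrays, 2875 and 2485 in the 2 IFNg arrays, and 387, 497 and 801 in the 3 untreated arrays. All 6 treated arrays lay above all untreated arrays. Over all genes, 10.4% had IFNa and untreated arrays that did not overlap, and 27.8% had IFNg and untreated arrays that did not, in either direction. Fcgr1 rose 6.72-fold after IFNa (log2 change 2.75 ± 0.23, SE, 95% interval 2.24 to 3.25, adjusted p = 9.36e-05 by limma). By the size of its rise it stood 49th of the 19752 genes in that comparison. After IFNg it rose 4.99-fold (log2 change 2.32 ± 0.27, SE, 95% interval 1.71 to 2.92, adjusted p = 0.00246 by limma), 46th by size. Without IFNg replicate 1 the IFNg change was 2.21 on the log2 scale and was no longer called (adjusted p = 0.051 by limma). The RNA came from whole sorted samples, so more cells carrying a transcript and more transcript per cell cannot be told apart.

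Fcgr4, the activating receptor for IgG2 subclasses, gave 2228, 2918, 2936 and 2912 in the IFNa arrays, 4254 and 3491 in the IFNg arrays, and 427, 927 and 1253 in the untreated arrays. Again no treated array fell within the untreated range. The untreated arrays differed widely among themselves. Fcgr4 rose 3.45-fold after IFNa (log2 change 1.79 ± 0.31, SE, 95% interval 1.09 to 2.48, adjusted p = 0.0135 by limma). After IFNg it rose 4.87-fold (log2 change 2.28 ± 0.37, SE, 95% interval 1.45 to 3.11, adjusted p = 0.0154 by limma). The IFNg call was lost without IFNg replicate 1 (log2 2.14, adjusted p = 0.217), IFNg replicate 2 (log2 2.43, adjusted p = 0.115) or untreated replicate 2 (log2 2.40, adjusted p = 0.0532), and in a fit of those 2 groups alone (adjusted p = 0.133, all by limma). Without the 2 arrays of narrow intensity range described further on, the changes were 1.31 after IFNa and 1.84 after IFNg, both called.

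Fcgr3, the low-affinity activating receptor, gave 6023, 6373, 6421 and 4555 in the IFNa arrays, 7130.7 and 7130.1 in the IFNg arrays, and 5307, 7058 and 6376 in the untreated arrays. The IFNa and untreated values overlapped, and both IFNg values lay just above the highest untreated one. The log2 change was -0.10 ± 0.15 after IFNa (SE, 95% interval -0.44 to 0.24, adjusted p = 0.926 by limma) and 0.20 ± 0.18 after IFNg (SE, 95% interval -0.21 to 0.61, adjusted p = 0.782 by limma). The upper bounds of these intervals lie below the lower bounds for Fcgr1 and Fcgr4.

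Fcgr2b, the inhibitory receptor, gave 4695, 5190.0, 5120 and 5466 in the IFNa arrays, 7205 and 6189.5 in the IFNg arrays, and 5494, 6420 and 5821 in the untreated arrays. Every IFNa array lay below every untreated array, though by little for the closest pair, and the IFNg arrays overlapped the untreated ones. Over all genes, 10.4% had IFNa and untreated arrays that did not overlap, in either direction. The log2 change was -0.21 ± 0.11 after IFNa (SE, 95% interval -0.46 to 0.05, adjusted p = 0.583 by limma) and 0.18 ± 0.14 after IFNg (SE, 95% interval -0.13 to 0.48, adjusted p = 0.752 by limma). Neither passed the test, and both intervals leave out a change of 2-fold. With arrays weighted by their estimated quality, the IFNa change was -0.32 and was called (adjusted p = 0.0112 by limma), in a fit that called 28.2% of all genes. That fit rested mostly on 1 untreated array. Untreated replicate 2, the highest untreated array for Fcgr2b, had a weight of 5.07, beside 0.21 and 0.30 for untreated replicates 1 and 3.

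Fcer1g, the common chain on which the activating receptors depend, gave 6456, 8740, 8448 and 8090 in the IFNa arrays, 8932 and 9082 in the IFNg arrays, and 7493, 8410 and 8046 in the untreated arrays. The IFNa arrays spanned the untreated ones, and both IFNg arrays lay above them. The log2 change was -0.02 ± 0.13 after IFNa (SE, 95% interval -0.30 to 0.27, adjusted p = 0.988 by limma) and 0.18 ± 0.15 after IFNg (SE, 95% interval -0.17 to 0.52, adjusted p = 0.773 by limma). For IFNg against untreated, 27.8% of all genes had arrays that did not overlap, in either direction.

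**Figure D2:**
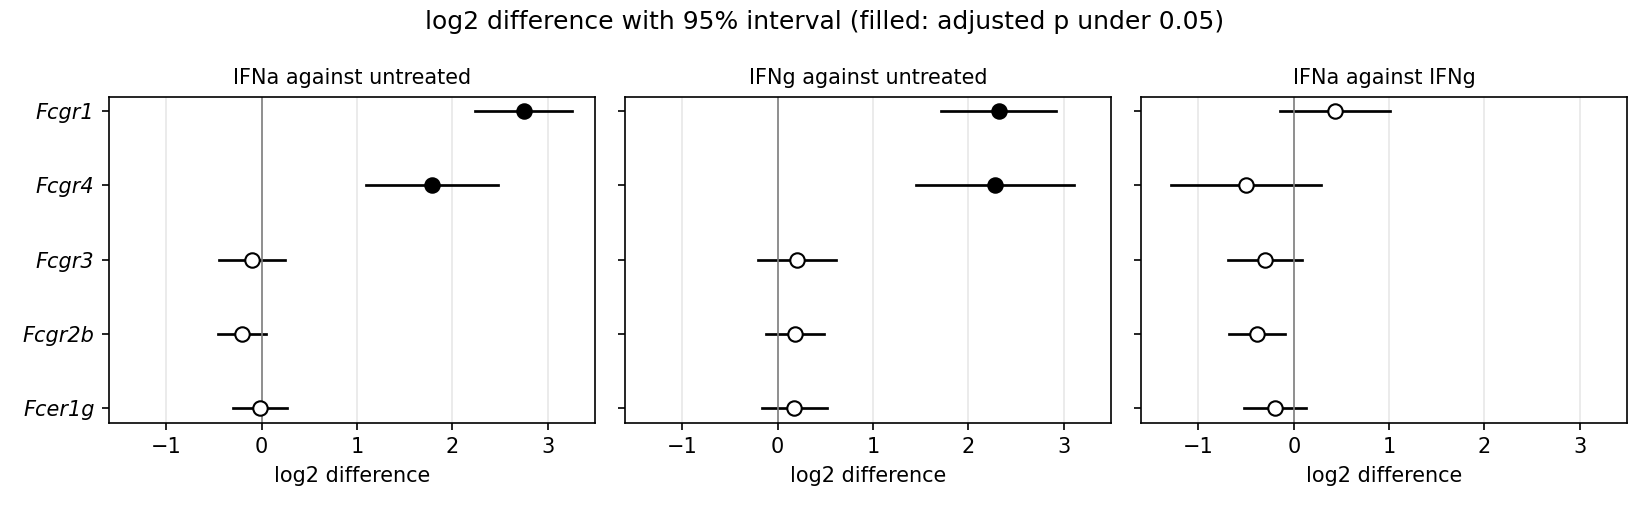
Log2 change of each of the 5 genes after IFNa and IFNg against untreated and in IFNa against IFNg, with bars for the 95% interval from the limma fit. The intervals of Fcgr1 and Fcgr4 lie wholly above 0 against untreated, those of Fcgr3, Fcgr2b and Fcer1g cross 0 there, and in IFNa against IFNg that of Fcgr2b alone leaves out 0 before adjustment.

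The direct comparison asked whether the 2 interferons differed. Fcgr1 was higher in all 4 IFNa arrays than in both IFNg arrays, and Fcgr4, Fcgr2b, Fcgr3 and Fcer1g were lower in all 4. The log2 difference of IFNa minus IFNg was 0.43 ± 0.26 for Fcgr1 (SE, 95% interval -0.14 to 1.00) and -0.50 ± 0.35 for Fcgr4 (95% interval -1.28 to 0.29). It was -0.39 ± 0.13 for Fcgr2b (95% interval -0.68 to -0.10), -0.30 ± 0.17 for Fcgr3 (95% interval -0.69 to 0.09) and -0.19 ± 0.15 for Fcer1g (95% interval -0.52 to 0.13). By limma 0 of the 5 genes were called higher and 0 lower, where 0.977% of all genes were called, 0.44% higher and 0.537% lower. Fcgr2b alone had an unadjusted limma p under 0.05, and its adjusted p was 0.403 by limma. The adjusted p was 0.802 for each of the others. In this comparison 28.4% of all genes had arrays that did not overlap. With array weights Fcgr2b was called (log2 difference -0.39, adjusted p = 0.0118 by limma), in a fit that called 8.33% of all genes. The intervals of Fcgr1 and Fcgr4 reach as far as a 2-fold difference.

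Because the levels of different probe sets cannot be set against each other, genes were compared as the difference of their log2 values within each array, taken relative to the mean of that difference in untreated mice. Such a value shows how unequally 2 genes changed. Fcgr1 relative to Fcgr2b lay at 2.86, 2.85, 3.04 and 3.08 in the IFNa arrays, 2.13 and 2.14 in the IFNg arrays, and -0.37, -0.23 and 0.60 in the untreated arrays. The 3 groups did not overlap. Fcgr4 relative to Fcgr2b lay at 1.82, 2.07, 2.10 and 1.99 in the IFNa arrays, 2.14 and 2.07 in the IFNg arrays, and -0.79, 0.11 and 0.68 in the untreated arrays. Here the IFNa and IFNg arrays overlapped, and all of them lay above the untreated arrays. Fcgr3 relative to Fcgr2b lay between -0.34 and 0.29 in the IFNa arrays, between -0.09 and 0.13 in the IFNg arrays, and between -0.12 and 0.06 in the untreated arrays, so all groups overlapped.

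The mean shift of Fcgr1 relative to Fcgr2b was 2.96 log2 units after IFNa and 2.14 after IFNg, and that of Fcgr4 was 1.99 and 2.10 in the same order. Exact two-sided permutation tests cannot go below p = 0.0571 for 4 against 3 arrays, 0.2 for 2 against 3 and 0.133 for 4 against 2. The shifts of Fcgr1 and Fcgr4 after IFNa and IFNg each gave that smallest exact p. The difference of IFNa minus IFNg was 0.82 for Fcgr1 relative to Fcgr2b (exact permutation p = 0.133, the smallest possible) and -0.11 for Fcgr4 relative to Fcgr2b (exact permutation p = 0.267).

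Fcgr1 was then set against Fcgr4, a pair chosen after the values had been seen and therefore only described. Relative to untreated, Fcgr1 minus Fcgr4 lay at 1.03, 0.79, 0.94 and 1.09 in the IFNa arrays, at -0.003 and 0.07 in the IFNg arrays, and at 0.42, -0.34 and -0.08 in the untreated arrays. The IFNa arrays stood apart from all others by this measure, and the IFNg arrays lay within the untreated range. The log2 changes of Fcgr1 and Fcgr4 against untreated were 2.75 and 1.79 after IFNa, and 2.32 and 2.28 after IFNg.

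**Figure D3:**
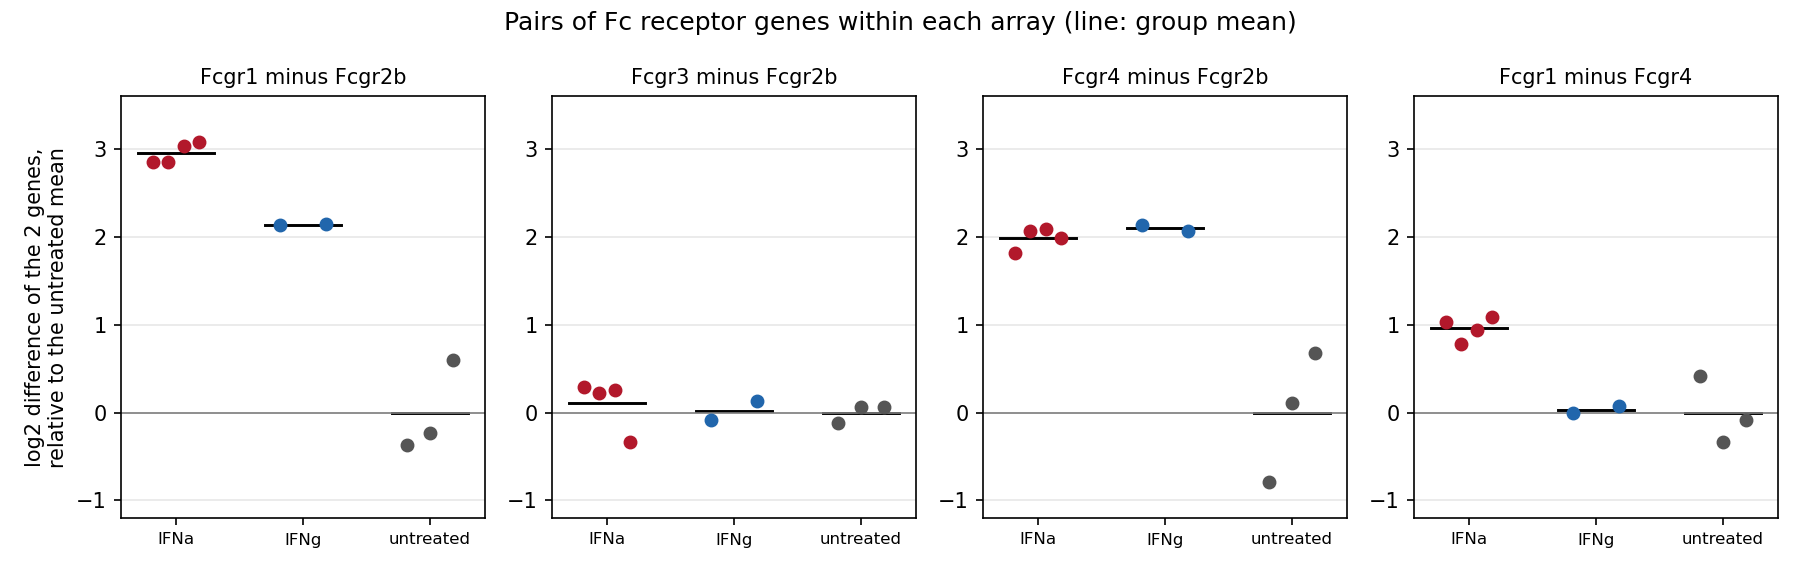
Difference of 2 Fc receptor genes on the log2 scale within each array, relative to its mean in the untreated arrays (line at 0), for the 4 IFNa, 2 IFNg and 3 untreated arrays, with group means as short lines. Fcgr1 minus Fcgr2b is higher in IFNa than in IFNg arrays, Fcgr4 minus Fcgr2b is at a like height in both, and Fcgr1 minus Fcgr4 stands near 1 in IFNa arrays and near 0 in IFNg arrays.

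Among the 3 untreated arrays, Fcgr1 and Fcgr4 were also the most variable of the 5 genes. The SD of log2 intensity over the 3 untreated arrays was 0.53 for Fcgr1 and 0.80 for Fcgr4, above 94.2% and 99.5% of all genes, while the median gene had 0.22. In the 4 IFNa arrays their SDs were 0.19 and 0.20, beside a median gene of 0.20. Both genes were lowest in untreated replicate 1 and highest in untreated replicate 3. Untreated replicate 1 is 1 of the 2 arrays of narrow intensity range described further on, so this spread need not be one between animals. Leaving out untreated replicate 3 raised the IFNa changes to 3.04 for Fcgr1 and 2.12 for Fcgr4, and leaving out untreated replicate 1 lowered them to 2.51 and 1.34, with all 4 still called.

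The genes whose log2 values most resembled those of Fcgr1 over the 9 arrays were Zbp1, a sensor of Z-form nucleic acids (Pearson r 0.996), Gm4951 (0.994), Slfn5, a Schlafen family gene (0.993), Trim21, a cytosolic antibody receptor (0.992), and Adar, an RNA-editing deaminase (0.991). Those nearest to Fcgr4 were Nampt, an enzyme of NAD salvage (0.990), Tfec, a transcription factor related to Mitf (0.988), Ppa1, a pyrophosphatase (0.981), Ugcg, which makes glucosylceramide (0.979), and Trex1, a DNA exonuclease (0.979). Fcgr1 and Fcgr4 correlated with each other at 0.923. These correlations describe 9 arrays in 3 groups, share the same treated against untreated contrast and carry no test.

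The 5 genes nearest to Fcgr1 gave IFNa minus IFNg differences from 0.17 to 0.79, and the 5 nearest to Fcgr4 gave differences from -0.56 to -0.13. For example, Slfn5 gave 5767, 4975, 5097 and 6686 in the IFNa arrays, 3523 and 2982 in the IFNg arrays, and 300, 538 and 796 in the untreated arrays. Nampt gave 2623, 2527, 2779 and 2693 in the IFNa arrays, 4250 and 3440 in the IFNg arrays, and 313, 653 and 852 in the untreated arrays. Slfn5 was higher in every IFNa array than in both IFNg arrays, and Nampt was lower. These genes were picked for their likeness over the same arrays, so an order shared with Fcgr1 or Fcgr4 is built into the choice and is no result. None of these 10 differences passed the test (adjusted p from 0.608 to 0.844 by limma). With array weights, under which 8.33% of all genes were called, 5 of them did (Slfn5, Adar, Nampt, Tfec and Ugcg). Because the 10 genes were chosen on these same arrays, that count cannot be read against the share over all genes.

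Other genes of the pathway were counted by list. Over 8 lists with 123 measured genes, 2 genes were called higher and 0 lower after IFNa (1.63%, beside 2.65% of all genes, with a median log2 change of -0.04), and 3 were called higher and 0 lower after IFNg (2.44%, beside 1.35% of all genes, median -0.03). The IFNa count depended on the scaling. After quantile normalization, which called 5.05% of all genes, 2 were called higher and 7 lower after IFNa, the lower ones being Cbl, Sirpa, Cd300a, Wasf2, Pip5k1c, Pld2 and Pla2g6. Trim21, the cytosolic antibody receptor and ubiquitin ligase, was the only one called of 13 other Fc receptors and antibody transporters. It gave 1353, 1253, 1401 and 1394 in the IFNa arrays, 1237 and 1155 in the IFNg arrays, and 295, 343 and 410.4 in the untreated arrays. No treated array came near the untreated range. Trim21 rose by log2 1.96 ± 0.13 after IFNa (adjusted p = 2.75e-05) and 1.79 ± 0.15 after IFNg (SE, adjusted p = 3.69e-04, both by limma).

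Among 14 inhibitory ITIM receptors of myeloid cells, Cd300lf, a receptor for lipids of dying cells, was called in each comparison. The other 13 were not called, though 3 of them were lower after IFNa at an unadjusted p under 0.05, and Sirpa and Cd300a were called lower there after quantile normalization. Its intensity was 230.2, 185, 220.3 and 274 in the IFNa arrays, 615 and 565 in the IFNg arrays, and 133, 136 and 155 in the untreated arrays. The 3 groups were apart, with the IFNg arrays highest. Cd300lf rose by log2 2.06 ± 0.17 after IFNg (SE, adjusted p = 2.69e-04 by limma) and 0.67 ± 0.14 after IFNa (SE, adjusted p = 0.0393 by limma), and it was lower after IFNa than after IFNg by a log2 difference of -1.39 ± 0.16 (adjusted p = 0.0035 by limma). The IFNa call was lost in 7 of the 9 fits that left out 1 array, all but those without IFNa replicate 2 or 4 (the highest adjusted p was 0.189 by limma). The direct difference was lost without IFNg replicate 1 (adjusted p = 0.0848) or IFNg replicate 2 (adjusted p = 0.0516, both by limma).

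Of 32 genes of activating ITAM signalling, Pik3cd, the delta catalytic subunit of phosphoinositide 3-kinase, was called after IFNg and 0 were called after IFNa. After IFNa 6 had an unadjusted limma p under 0.05, 3 of them higher, beside 11.9% of all genes at that level. After IFNg 4 did, all of them higher, beside 8.23%. Without untreated replicate 3, Fyn was called higher after both interferons. Without the 2 arrays of narrow intensity range described further on, Plcg1 was called lower after IFNa. Pik3cd gave 870.1, 831, 945 and 1026 in the IFNa arrays, 1324 and 1205 in the IFNg arrays, and 699.9, 605 and 706 in the untreated arrays. It lay higher in all 6 treated arrays than in the untreated ones, with a log2 change of 0.92 ± 0.14 after IFNg (SE, adjusted p = 0.0123 by limma) and 0.45 ± 0.12 after IFNa (SE, adjusted p = 0.0978 by limma). The IFNg call was lost without IFNg replicate 1 (adjusted p = 0.223), IFNg replicate 2 (0.109) or untreated replicate 2 (0.0677), and after quantile normalization (0.176). Syk, the kinase that docks on the phosphorylated ITAM, changed by -0.21 ± 0.15 after IFNa and -0.01 ± 0.18 after IFNg (SE), and neither value passed the test.

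The remaining lists held 0 called genes by limma with the deposited scaling and all 9 arrays. They were 16 genes of ITIM signalling and inhibitory phosphatases, 3 ITAM adaptors other than Fcer1g, 8 receptors that pair with Fcer1g, 30 genes of actin and engulfment machinery, and 7 genes of complement receptors and the C5a axis. At an unadjusted p under 0.05, the ITIM signalling genes held 0 after IFNa and 3 after IFNg, the actin genes 6 and 1, the complement receptor genes 1 and 0, and the adaptors and Fcer1g partners 0 each, beside 11.9% and 8.23% of all genes. Other settings made calls in these lists. After quantile normalization, Cbl and 4 actin genes (Wasf2, Pip5k1c, Pld2 and Pla2g6) were called lower after IFNa. Without the 2 arrays of narrow range, Wasf2 and Pip5k1c were called lower after IFNa and Sla lower after IFNg. Under both of these settings Ptpn6 and Dok2 were called lower in IFNa than in IFNg. Without untreated replicate 1, Pip5k1c was called lower after IFNa and Dok2 lower in IFNa than in IFNg. Without untreated replicate 3, Dok2 was called in that comparison too, and Dok2 and Ubash3b were called higher after IFNg. Inpp5d, the lipid phosphatase that Fcgr2b recruits, changed by -0.07 ± 0.12 after IFNa and -0.09 ± 0.14 after IFNg. Dok2, an adaptor of inhibitory signalling, reached 0.92 ± 0.20 after IFNg (SE, adjusted p = 0.0675 by limma) and was called there after quantile normalization. Tyrobp, the other main ITAM adaptor of myeloid cells, changed by -0.05 ± 0.11 after IFNa and 0.003 ± 0.13 after IFNg.

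**Figure D4:**
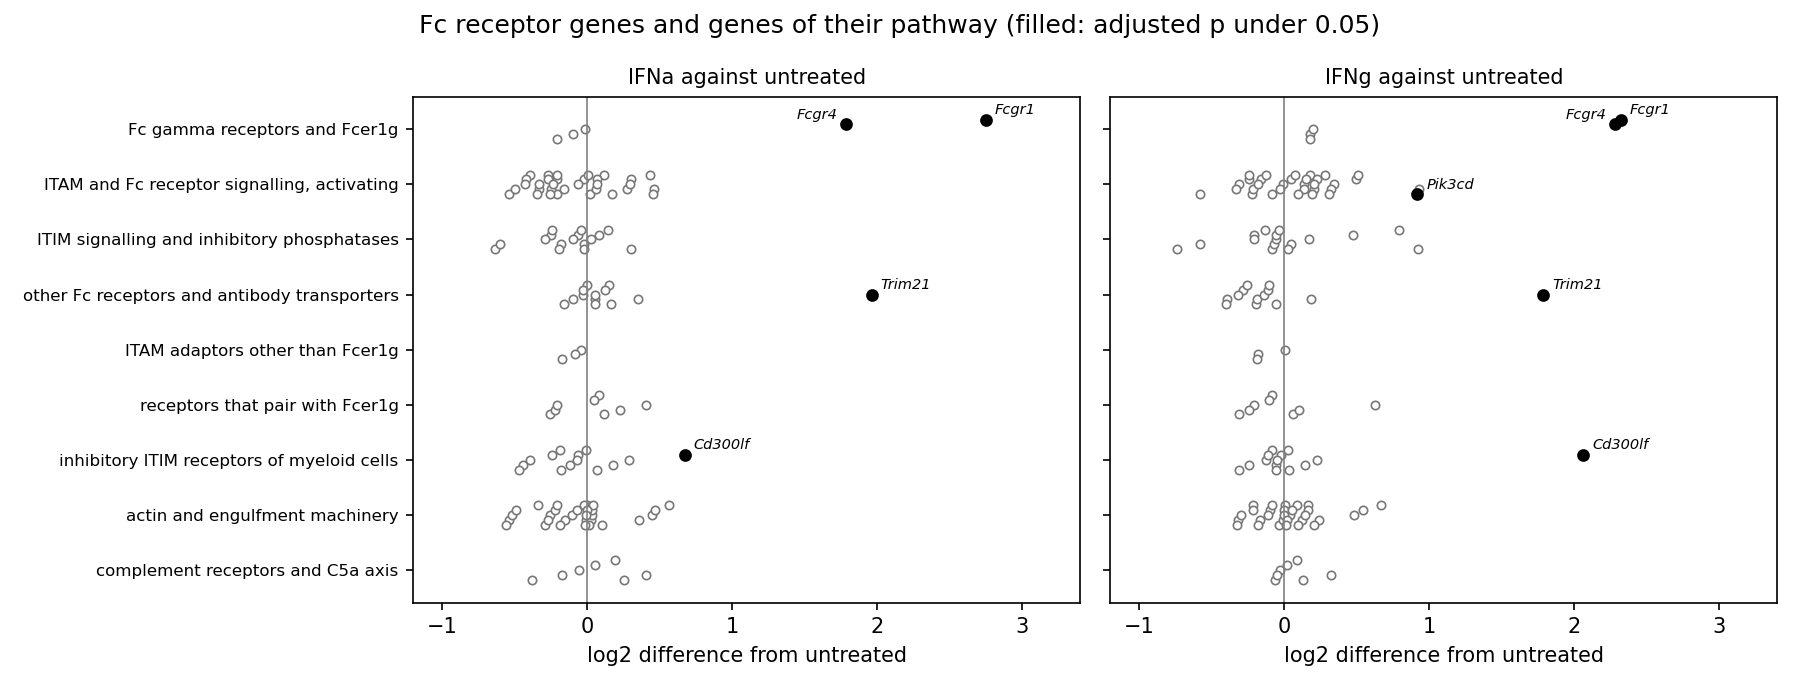
Log2 change after IFNa and after IFNg against untreated (horizontal axis) for the 5 Fc receptor genes in the top row and for the genes of 8 pathway lists below, 1 point per gene, filled where the adjusted p was under 0.05. Fcgr1, Fcgr4, Trim21 and Cd300lf stand to the right in both panels, and Pik3cd is filled after IFNg alone. The other points are open and lie on both sides of 0, and after IFNg that of Dok2 lies about as far right as Pik3cd.

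On chromosome 1 and chromosome 3, the 3 nearest measured genes on each side of each member gave 19 neighbours. After IFNa 0 of them were called by limma, 1 had an unadjusted p under 0.05, and log2 changes ran from -0.46 to 0.15. After IFNg 1 was called and 2 had an unadjusted p under 0.05. Of all genes, 2.65% and 1.35% were called and 11.9% and 8.23% reached that unadjusted level after IFNa and IFNg, so counts of 0 and 1 of 19 are near the background. This was B4galt3, a galactosyltransferase of the Golgi that lies beyond Fcer1g, with 344, 389, 412 and 340.4 in the IFNa arrays, 983 and 1132 in the IFNg arrays, and 329, 376 and 395 in the untreated arrays. Only the IFNg arrays stood out. B4galt3 rose 2.88-fold after IFNg (log2 change 1.53 ± 0.15, SE, adjusted p = 6.72e-04 by limma), changed by 0.02 ± 0.12 after IFNa, and differed between IFNa and IFNg by -1.51 ± 0.14 (adjusted p = 7.81e-04 by limma). The other 18 neighbours changed by -0.40 to 0.47 after IFNg.

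**Figure D5:**
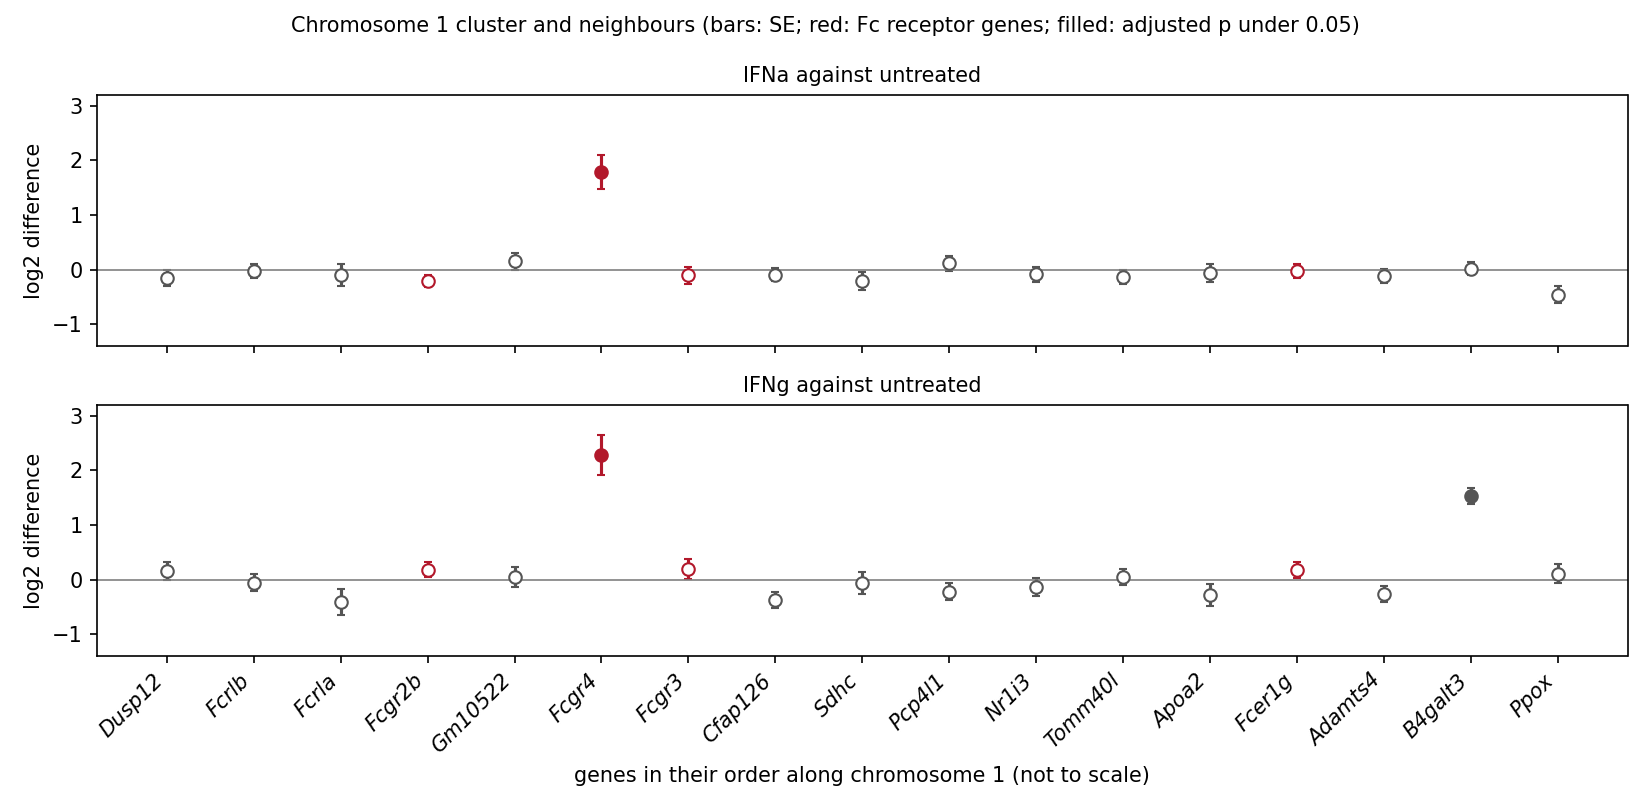
Log2 change after IFNa (top) and IFNg (bottom) against untreated, with SE bars, for Fcgr2b, Fcgr4, Fcgr3 and Fcer1g (red) and their measured neighbours in their order along chromosome 1, filled where the adjusted p was under 0.05. Fcgr4 is filled in both panels between genes near 0, and B4galt3 is filled after IFNg alone.

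Median intensity per array ran from 162 to 178. IFNa replicate 4 and untreated replicate 1 had a narrower spread of values than the rest, with quartile ranges of 2.16 and 2.27 log2 units against 2.68 to 3.03 in the others. Adgre1, which encodes F4/80, gave 7782 to 9125 in the IFNa arrays, 8334 to 8361 in the IFNg arrays and 7966 to 8498 in the untreated arrays, and Icam2 gave 2489 to 3547, 3557.9 to 3649 and 3116 to 3873 in the same order of groups. The 17 markers of large peritoneal macrophages summed to 102155 to 108206 in the IFNa arrays, 100910.0 to 106562 in the IFNg arrays and 106805 to 110968 in the untreated arrays, so both IFNg arrays lay below the untreated ones. Bright genes such as Lyz2 weigh most in such a sum. At an unadjusted limma p under 0.05, 3 markers were lower and 2 higher after IFNa, beside 11.9% of all genes. After IFNg 3 were lower and 1 higher, beside 8.23%. The median log2 change of the 17 markers was -0.02 after IFNa and -0.09 after IFNg. Single markers went both ways. Geometric means of Tgfb2 were 3288, 3071 and 5134 in the IFNa, IFNg and untreated arrays, and those of Garnl3 were 2445, 2322 and 3281. Those of Timd4 were 6511, 7328 and 5472 in the same order, higher after both interferons. Of these markers, Gata6, the transcription factor of these cells, was called lower after IFNa (log2 change -1.05, adjusted p = 0.00997 by limma) and IFNg (-1.16, adjusted p = 0.0242), and Mertk was called higher after IFNa (0.62, adjusted p = 0.0318). The Gata6 call was lost after IFNa without untreated replicate 2 (adjusted p = 0.0641), and after IFNg without IFNg replicate 1 (0.107), IFNg replicate 2 (0.337), untreated replicate 2 (0.114) or untreated replicate 3 (0.0601). The Mertk call was lost in 7 of the 9 fits that left out 1 array, all but those without IFNa replicate 4 or untreated replicate 3 (adjusted p up to 0.139).

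Other cells of the peritoneum also carry Fc receptors. The summed intensity of 15 markers of small macrophages, monocytes and dendritic cells was 10948 to 13576 in the IFNa arrays, 11400 to 12939 in the IFNg arrays and 12224 to 13697 in the untreated arrays. The median log2 change of these 15 markers was -0.15 after IFNa and -0.25 after IFNg. At an unadjusted limma p under 0.05, 1 was higher and 0 lower after IFNa, beside 11.9% of all genes. After IFNg 1 was higher and 1 lower, beside 8.23%. Of these markers Plac8 was called higher after IFNa (log2 change 1.00, adjusted p = 0.0156 by limma), and after IFNg its log2 change was 1.03 (adjusted p = 0.0537 by limma). Plac8 gave 197 to 262 in the IFNa arrays, 197 and 281 in the IFNg arrays and 93.7 to 136 in the untreated arrays, so all treated arrays lay above the untreated ones. Ccr2 lay at 214 to 307, 220.4 to 271 and 185 to 433 in that order of groups. The 15 neutrophil and eosinophil markers summed to 1199 to 1583, 1199 to 1218 and 1185 to 1469, the 13 B cell markers to 2644 to 4707, 2648 to 2743 and 3042 to 3395, and the 12 NK and T cell markers to 832 to 1138, 784 to 812 and 786 to 942. Of these 3 lists Klrk1 alone was called, higher after IFNa (1.48, adjusted p = 6.71e-05) and IFNg (0.94, adjusted p = 0.00909, both by limma), with 46.3 as its highest untreated intensity. The Plac8 call was lost without IFNa replicate 2 (adjusted p = 0.0521) or untreated replicate 2 (0.0851), and the IFNg call of Klrk1 without IFNg replicate 1 (0.107) or IFNg replicate 2 (0.146, all by limma). The 11 mast cell and basophil markers, cells that carry Fcer1g with the IgE receptor, summed to 1713 to 3467, 1739 to 1829.5 and 1459 to 1844. The defining mast cell genes Fcer1a and Ms4a2 lay between 22.4 and 36.8 in every array, beside 5th percentiles of the arrays between 23.6 and 33.9. Some other genes of that list lay higher. Cpa3 gave 41.3 to 68.8 in the IFNa arrays, 35.0 and 44.2 in the IFNg arrays and 57.3 to 124 in the untreated arrays. Its log2 change was -0.76 after IFNa and -1.10 after IFNg, and neither was called (adjusted p = 0.237 and 0.222 by limma). Hdc, the brightest, had geometric means of 1420, 1193 and 921 in that order of groups. The highest IFNa sums of the mast cell, neutrophil and NK and T cell lists all came from IFNa replicate 4, an array of narrow range, and without it the IFNa sums reached 1791, 1247 and 911. Over all 6 marker lists, 4.82% of 83 genes were called after IFNa and 2.41% after IFNg, beside 2.65% and 1.35% of all genes. The part of other cells in the rises of Fcgr1 and Fcgr4 was not tested.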

How the data were processed

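Biotin-labelled RNA of sorted peritoneal macrophages, extracted with TriZol, was hybridised to single-colour Affymetrix arrays, per the labels. The deposited values are intensity on a linear scale, made by the authors with Affymetrix Power Tools and RMA (background correction, normalization and summary of probes), per the submitters' processing notes. Which arrays were normalized together is not given in the sources used here. The number of arrays limits the precision.

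Intensities were put on the log2 scale, with no filter on low values. Of 24922 probe sets, 21425 carried 1 symbol, 1399 several and 2098 none in the platform table. Each gene was read from the probe set with its symbol alone and the highest mean, giving 19752 genes. Samples were grouped by the treatment label. One linear model of the 9 arrays with a mean for each of the 3 groups was fitted by lmFit and eBayes of limma (version 3.58.1, R 4.3.3, with 6 residual and 3.62 prior degrees of freedom), which took the spread of the 2 IFNg arrays to equal that of the other groups. P-values are two-sided, adjusted by Benjamini-Hochberg over all genes, with a threshold of 0.05. The fit was tested on simulated data. Ratios were tested by exact permutation. Promoters were read from RefSeq windows on GRCm38.p6, in which all 5 genes were found.

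The members, gene lists and tests were chosen with earlier results of these data known. All members were named, with the called genes of each pathway and marker list and the 3 nearest neighbours on each side. Also named were the 5 genes most correlated with each called member and a few known genes chosen after their values were seen. The latter were Syk, Inpp5d, Dok2, Tyrobp, some cell markers and genes called under another setting. Alternatives were other normalizations, variance models and filters, array weights, a replicate block and leaving out each array. Array weights were estimated gene by gene and the pair Fcgr1 and Fcgr4 was compared after seeing the data. Whether title numbers pair the samples was not settled, since deviations of same-numbered arrays correlated between -0.21 and 0.60. The main fit took the samples as unpaired. Python 3.11.15, pandas 2.3.3 and matplotlib 3.10.9 were also used.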

Additional observations from a re-analysis of the deposited data

Results flagged for a closer look

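Fcgr4 in IFNa replicate 1 lay apart from the rest of its group, at 2228 against 2912 to 2936 in the other 3 IFNa arrays. Its gap to the nearest of them was 0.970 of the group's range, which marks it as an outlier by Dixon's criterion for 4 values, a criterion that chance alone meets at times. The same array was also the lowest of the 4 for Fcgr1, Fcgr2b and Fcer1g, without passing that criterion. Its description gives interferon without naming the type, while its title and treatment label give IFNa. Without it the Fcgr4 change after IFNa was 1.88 on the log2 scale and still called (adjusted p = 0.0291 by limma).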

How the results depend on the processing

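Over 22 other settings, 321 of 330 values of the 5 genes in the 3 comparisons kept their direction, if called, and their side of the threshold, 7 lost a call, 2 gained one and 0 of those called reversed. Fcgr1 after IFNa was called in each limma setting, with log2 changes from 2.44 to 3.04. The count of 2 called Fc receptor genes after IFNa became 1 at an adjusted p under 0.01 and 3 with array weights (Fcgr2b lower), and was 2 whichever array was left out. The count of 2 after IFNg became 1 at that threshold and 1 in a fit of only the 2 groups compared, and ran from 0 to 2 when each array was left out, with 0 without IFNg replicate 1 and 1 without IFNg replicate 2 or untreated replicate 2. In IFNa against IFNg the count of 0 became 1 (Fcgr2b) with array weights. Exact permutation tests, which cannot reach 0.05 here, called 0 genes after IFNa and 0 after IFNg. The cause of these changes was not tested beyond the fewer arrays or stricter threshold that some settings use. A replicate block by title number left 2 called after each interferon, with log2 changes of 2.68 and 2.50 for Fcgr1 and 1.76 and 2.48 for Fcgr4 (IFNa, then IFNg), while the count over all genes became 827 after IFNa and 699 after IFNg, against 523 and 267 without the block. Over all genes, array weights gave 5573, 6167 and 1645 calls in the 3 comparisons and leaving out the 2 arrays of narrow range gave 1106, 503 and 542, against 523, 267 and 193. Leaving out each array gave 288 to 600, 80 to 391 and 42 to 276 calls, an adjusted p under 0.01 gave 278, 131 and 90, a 2-fold minimum gave 293 after IFNa, and a fit of the 2 groups alone gave 119 after IFNg. Quantile normalization gave 476 higher and 522 lower genes after IFNa and median centring 319 and 89, against 354 and 169. Quantile normalization gave 263 higher and 77 lower after IFNg, against 245 and 22, and 149 higher and 114 lower in IFNa against IFNg, where 87 and 106 were called without it. Depth does not apply to arrays, and all 5 genes were brighter than 92.9% of probe sets.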
